A study of Mus musculus with 25 samples.

Results

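The genes described here are 10 close neighbours of Ptgfr, the mouse gene of the prostaglandin F receptor FP: Ifi44l, Gipc2, Adgrl4, Dnajb4, Fubp1, Nexn, Miga1, Usp33, Zzz3 and St6galnac5. They were chosen for their place, within about 1.1 Mb of Ptgfr on mouse chromosome 3, and for their values in FP-KO against WT lungs on 3 days. Those values are therefore given as a description, with no test, while changes over time within a genotype were not used in the choice and were tested. The 10 genes are 10 of 18193 measured and are read by 22 of the 45101 probe sets of the array, each of them annotated to 1 symbol alone. A probe set is a group of short DNA probes for 1 transcript, and its intensity is the brightness of the bound RNA.

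The lungs of 25 female mice were measured on 1 Affymetrix array each. There were 4 FP-KO mice on each of Day 0, Day 7 and Day 14, and of the WT mice 4 on Day 0, 4 on Day 7 and 5 on Day 14. All mice got bleomycin, a cancer drug whose damage to the lung ends in fibrosis, through the windpipe at 1 mg/kg in 40 ul of saline, and the Day 0 lungs are labelled as baseline. FP-KO is the labels' name for mice without the FP receptor. The labels give no strain, no age, no breeding scheme and no account of which stretch of DNA was removed, so loss of FP and other DNA differences between the genotypes cannot be told apart. The labels number the mice but name no litters, so the spread between mice is all that the errors cover.

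FP is a receptor of the cell surface that couples to calcium signalling when it binds prostaglandin F, and it is best known from smooth muscle and the ovary. The neighbours of its gene have unrelated tasks. Ifi44l belongs to the genes that interferons switch on during the antiviral response, and the reference gene table lists H28, a minor histocompatibility antigen of the mouse, among its other names. Gipc2 is a scaffold protein that binds the tails of membrane receptors, Adgrl4 an adhesion receptor of endothelial cells, and St6galnac5 an enzyme of the Golgi that adds sialic acid to glycolipids. Nexn binds actin filaments in muscle, Dnajb4 is a co-chaperone, Fubp1 a DNA- and RNA-binding protein, Miga1 a protein of the outer mitochondrial membrane, Usp33 a deubiquitinase and Zzz3 a subunit of a histone acetyltransferase complex.

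Ifi44l starts 0.04 Mb from the Ptgfr start on one side, with Adgrl4 further out on that side at 0.361 Mb. On the other side lie Gipc2 at 0.295 Mb, Dnajb4 at 0.383, Fubp1 at 0.412, Nexn at 0.438, Miga1 at 0.475, Usp33 at 0.548, Zzz3 at 0.597 and St6galnac5 at 1.021 Mb. The stretch before the start of Ifi44l is shown beside that of Cxcl10, an interferon-induced chemokine gene that also moved over time in FP-KO lungs. Cxcl10 was picked for the largest rise on Day 7 among listed interferon-stimulated genes with a window that holds the motif given below. Its match was thus set by the choice, and nothing is read from the contrast with Ifi44l. Each is the 250 bases before the start in the RefSeq annotation of GRCm38.p6, on the minus strand, read 5′ to 3′, at chr3:151762892-151763141 for Ifi44l and chr5:92348890-92349139 for Cxcl10. Capitals mark every GAAA and TTTC, the repeated unit of the interferon-response motif GAAANNGAAA and its reverse complement.
Ifi44l: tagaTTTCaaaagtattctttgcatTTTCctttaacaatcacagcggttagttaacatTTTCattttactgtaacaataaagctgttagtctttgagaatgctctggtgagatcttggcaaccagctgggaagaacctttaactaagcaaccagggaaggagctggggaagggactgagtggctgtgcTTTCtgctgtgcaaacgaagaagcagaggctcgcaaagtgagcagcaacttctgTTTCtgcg
Cxcl10: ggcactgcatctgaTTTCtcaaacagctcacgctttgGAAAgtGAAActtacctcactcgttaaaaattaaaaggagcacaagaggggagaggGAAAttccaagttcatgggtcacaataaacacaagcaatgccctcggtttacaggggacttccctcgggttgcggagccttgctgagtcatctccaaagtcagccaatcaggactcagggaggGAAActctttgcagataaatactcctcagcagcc
The Ifi44l window holds 5 such units but 0 matches of the whole motif, searched on both strands. The Cxcl10 window holds 1 match, GAAAGTGAAA, which begins 213 bases before the start. The motif is found in 978 of all 32851 promoter windows (2.98%), counted window by window. Of the interferon-stimulated genes listed for this comparison, 22 have a window, and 11 of these genes (50%) hold the motif in at least 1 window. A gene can have several windows, so the share of genes and the share of windows are not alike. Of the 10 neighbours 5 have a window in the table, and 0 of those 5 genes hold the motif in any window. A match is only a match of letters, and its absence says nothing about what binds there.

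The arrays had median intensities between 112.3 and 151.5 as deposited. All 9 genes listed as defining lung (such as the surfactant genes Sftpc and Sftpb) were measured and none was at the floor of 24.3, below which intensities were set to it. On the first principal component (42% of the variance) the Day 0 arrays lay between -35 and -24.8, and FP-KO mouse No. 2 of Day 14 lay at -29, among them. On the second (16.9%) the Day 14 arrays formed 2 sets, one of FP-KO No. 1 and 2 with WT No. 1 to 3 between -30.1 and -27.7, and one of FP-KO No. 3 and 4 with WT No. 4 and 5 between -1.36 and 2.28. For the neighbours, Day 14 results were also computed within each of these sets, and some are given with both values. The Day 14 counts over gene lists and over other genes near Ptgfr were not split by set. Whether those counts differ between the sets was not tested. The ratio of the 3′ to the 5′ control probe set of Actb, a measure of RNA wholeness, was 1.31 to 1.55 on Day 0, 1.18 to 1.35 on Day 7 and 1.38 to 1.56 on Day 14 in FP-KO lungs. In WT lungs it was 1.34 to 1.62, 1.23 to 1.32 and 1.21 to 1.40. Every WT lung of Day 7 was thus below every WT lung of Day 0, and on Day 14 the genotypes overlapped only narrowly. The part of this ratio in the changes over time and in the differences between the genotypes was not tested. The control probe set of 18S ribosomal RNA was brightest in FP-KO mouse No. 2 of Day 14 (2393) and FP-KO mouse No. 1 of Day 0 (1230), against 63.6 to 674.5 in the other arrays. Precision is limited by how many arrays a group has.

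Ptgfr itself had intensities of 56.9, 33.9, 57.6 and 34.4 in FP-KO lungs, against 259, 308, 384 and 265 in WT lungs, on Day 0. FP-KO lungs were thus low but above the floor in this probe set on Day 0, and its place relative to the deleted DNA is not given. The FP-KO minus WT difference was -2.86 ± 0.24 on Day 0 (log2 ± standard error, here and below), -1.95 ± 0.24 on Day 7 and -2.49 ± 0.23 on Day 14, with adjusted p of 1.56e-07, 0.000185 and 8.48e-07. These p-values are from limma with Benjamini-Hochberg adjustment over the 12068 genes tested, as are all others given here. Over those 12068 genes, Ptgfr included, 0.0166% passed an adjusted p of 0.05 on Day 0, 0.0166% on Day 7 and 10.5% on Day 14. How many FP-KO lungs were at the floor for Ptgfr depended on the probe set. On Day 0, 7 and 14 it was 0, 0 and 1 in the one used above and 4, 3 and 4 in 1449828_at. In 1420349_at it was 2, 2 and 1, in 1440777_x_at 1, 2 and 2, and in 1446331_at 0, 2 and 0.

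Ifi44l was readily measured in every FP-KO lung and hardly at all in WT lungs. Its intensities in FP-KO lungs were 193, 204, 212 and 254 on Day 0, against 2.3, 2.4, 12.6 and 28.8 in WT lungs. On Day 7 they were 392.4, 445, 375 and 439.6 in FP-KO lungs and 27.9, 2.3, 33.9 and 1.6 in WT lungs. On Day 14 they were 209, 159, 200.3 and 188 in FP-KO lungs and 1.5, 3.8, 9.5, 10.7 and 17 in WT lungs. The lowest FP-KO lung thus stood above the highest WT lung on each day, with a wide gap. Of the WT lungs, 3 of 4 on Day 0, 2 of 4 on Day 7 and 5 of 5 on Day 14 were at the floor, so the WT level is only bounded from above. FP-KO minus WT was 3.07 ± 0.11, 3.96 ± 0.11 and 2.91 ± 0.10 on the 3 days, values that move with the floor. With a floor of 10 they became 3.96, 4.60 and 4.04, and with a floor of 50 they became 2.06, 3.09 and 1.87.

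A second probe set of Ifi44l, 1421596_s_at, gave 209, 151, 273 and 248 in FP-KO lungs on Day 0, 482, 462, 341 and 393 on Day 7 and 176, 121, 199 and 197 on Day 14. Every WT lung was at the floor in it, which makes FP-KO at least 8.85-fold higher on Day 0, at least 17.1-fold higher on Day 7 and at least 7.00-fold higher on Day 14. These bounds set the mean FP-KO level against the floor. The third probe set, 1450301_at, stayed between 0.8 and 36.5 in all 25 arrays and the genotypes overlapped (0.03 ± 0.08, 0.16 ± 0.08 and 0.15 ± 0.08). The third probe set thus did not follow the other two.

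**Figure D1:**
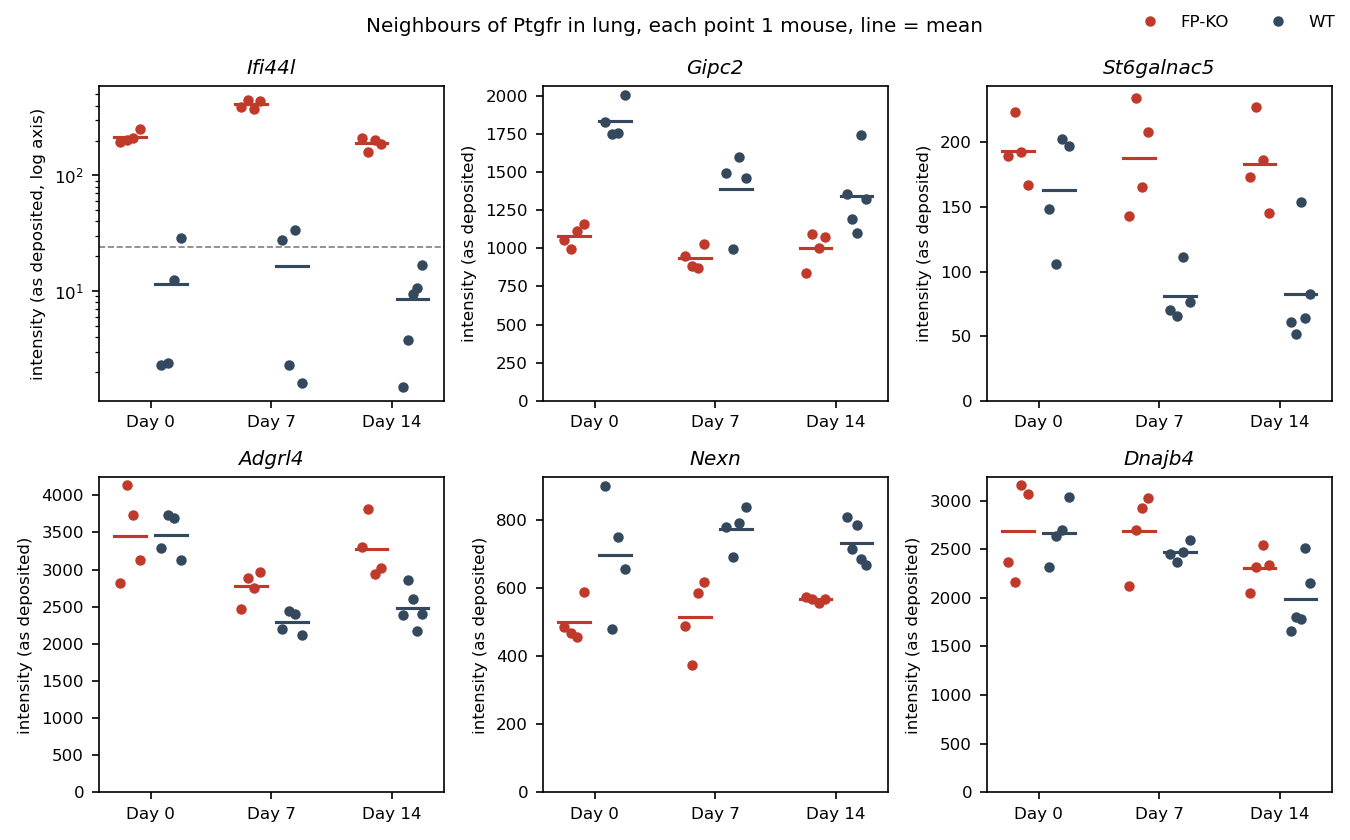
Intensity as deposited of 6 neighbours of Ptgfr in each mouse on Day 0, Day 7 and Day 14, with FP-KO mice in red to the left of WT mice in dark blue, lines for group means and, for Ifi44l alone, a log axis with the floor of 24.3 dashed. FP-KO lungs lie at 159 or above for Ifi44l while WT lungs lie at 33.9 or below, and St6galnac5 is lower in WT lungs of Day 7 and Day 14 than in WT lungs of Day 0.

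Among the receptor-linked and glycan genes, Gipc2 was lower in FP-KO lungs before injury. It read 1053, 992, 1115 and 1156 in FP-KO lungs and 1824.5, 1751, 1751 and 2004 in WT lungs on Day 0, a difference of -0.76 ± 0.14 without overlap. On Day 7 it read 951, 882, 872 and 1030.4 in FP-KO lungs and 1495, 996, 1596 and 1460.0 in WT lungs. WT mouse No. 2 lay within the FP-KO range there, and the difference was -0.54 ± 0.14. On Day 14 FP-KO lungs read 838, 1091.5, 998.5 and 1076 and WT lungs 1352.5, 1191, 1097, 1742 and 1323, a difference of -0.41 ± 0.13 with overlap after normalization. The gap between the genotypes was thus narrower on the later days, with WT lungs at lower levels then than on Day 0.

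For St6galnac5 the gap between the genotypes was wider on the later days. On Day 0 its intensities were 189.6, 224, 192 and 167 in FP-KO lungs and 148, 106, 202 and 197 in WT lungs, which overlapped (0.23 ± 0.25). On Day 7 they were 143, 234.5, 165 and 208 in FP-KO lungs and 70.1, 66, 111 and 76.6 in WT lungs, without overlap (1.25 ± 0.25). On Day 14 they were 173, 228, 186 and 146 in FP-KO lungs and 60.8, 51.6, 154, 64.4 and 83.1 in WT lungs (1.14 ± 0.23), and WT mouse No. 3, at 154, was the one that overlapped. The same mouse was the highest WT lung of Day 14 in the other probe sets of the gene too, at 166 in 1440973_at and 73.8 in 1449468_at. Differences in those 2 were 0.44 ± 0.42 and 0.92 ± 0.34 on Day 7 and 1.15 ± 0.40 and 0.70 ± 0.32 on Day 14, all of 1 sign with that of the first probe set. On Day 0 they were 0.43 ± 0.42, with FP-KO lungs higher without overlap, and 0.05 ± 0.34, with overlap.

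Adgrl4 was alike in both genotypes on Day 0 by 1 of its probe sets and not by the other. The probe set with the higher mean read 2820.0, 4139, 3736 and 3125 in FP-KO lungs and 3293, 3738, 3692 and 3131 in WT lungs, a difference of 0.00 ± 0.12. The other, 1418058_at, read 3091, 3669, 3152 and 2898 in FP-KO lungs and 4083, 4129, 3923 and 3679 in WT lungs, lower in FP-KO without overlap (-0.31 ± 0.11). Both were higher in FP-KO lungs on the later days, by 0.26 ± 0.12 and 0.13 ± 0.11 on Day 7 and by 0.42 ± 0.12 and 0.28 ± 0.10 on Day 14. In the first probe set the groups did not overlap on Day 7 or Day 14, and in the second they did.

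Nexn, the actin-binding gene, was lower in FP-KO lungs on each day. On Day 7 it read 488, 373, 585 and 617 in FP-KO lungs and 778, 693, 791 and 838 in WT lungs, and on Day 14 575, 568.5, 557 and 569 in FP-KO lungs and 809.6, 714, 785, 685.5 and 669 in WT lungs. Neither day had overlap, and the differences were -0.58 ± 0.13 and -0.36 ± 0.13. On Day 0, at -0.46 ± 0.13, WT mouse No. 2 (480.2) fell among the FP-KO lungs (484.5, 469.5, 456 and 588). A list of 13 genes of heart and skeletal muscle, whose cells also use Nexn, was measured in the same lungs. Its summed intensity (lowest to highest lung) was 19751 to 28756 in FP-KO lungs and 29025 to 36441 in WT lungs on Day 0. On Day 7 the bounds were 17342 to 23735 in FP-KO lungs and 14898 to 22435 in WT lungs. On Day 14 they were 17401 to 30095 in FP-KO lungs and 11751 to 14839.6 in WT lungs. No gene of the list was at the floor throughout a group. By the test 0, 0 and 9 of the 13 were higher in FP-KO lungs on Day 0, 7 and 14. At an unadjusted p under 0.05 by limma, in either direction, 7, 1 and 12 passed, beside 401, 878 and 3078 of all 12068 genes. The muscle genes' sum was below the WT range on Day 0 in every FP-KO lung and above it on Day 14. Nexn was lower in FP-KO lungs on Day 14, when these muscle genes were higher there, and their part in the Nexn values was not tested.

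The other 5 neighbours differed little between the genotypes. Dnajb4 differed by 0.01 ± 0.14, 0.10 ± 0.14 and 0.25 ± 0.13 on Day 0, 7 and 14, Miga1 by -0.03 ± 0.12, 0.08 ± 0.12 and 0.14 ± 0.11, and Usp33 by -0.13 ± 0.13, -0.15 ± 0.13 and -0.10 ± 0.13. Zzz3 differed by -0.17 ± 0.10, -0.17 ± 0.10 and -0.14 ± 0.09. Fubp1 differed by 0.16 ± 0.27, -0.33 ± 0.27 and -0.13 ± 0.25, with the widest errors of the 10. In these 5 genes the FP-KO and WT ranges overlapped on all 3 days in the probe set that stands for the gene. A second probe set of Miga1, 1437002_at, was higher in FP-KO lungs by 0.45 ± 0.18 on Day 7 and 0.36 ± 0.17 on Day 14, without overlap. A second one of Zzz3, 1438487_s_at, gave -0.29 ± 0.16 on Day 0, lower in FP-KO lungs and also without overlap.

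**Figure D2:**
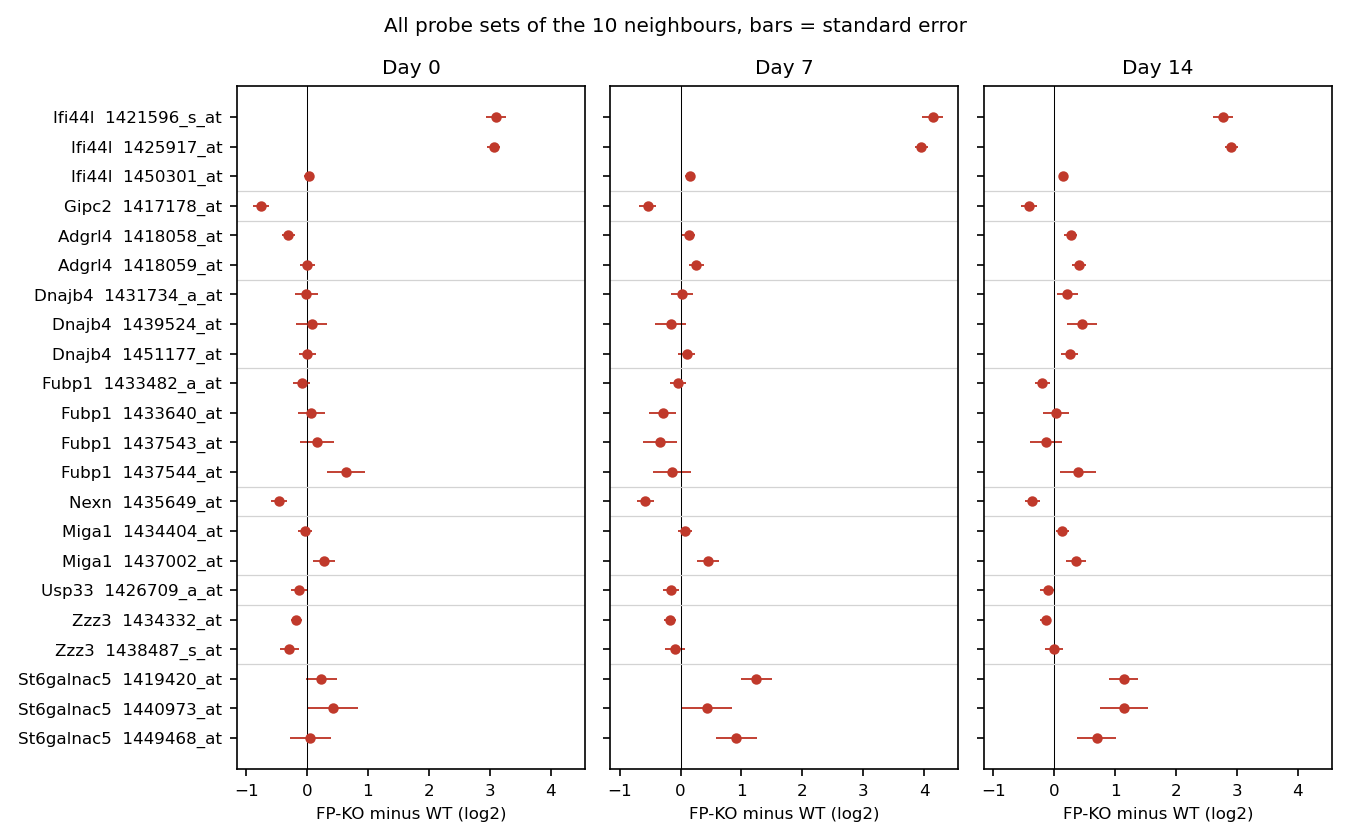
FP-KO minus WT difference (log2, with the standard error) of each of the 22 probe sets of the 10 neighbours on Day 0, Day 7 and Day 14. The 2 probe sets of Ifi44l at the top lie between 2.77 and 4.14, all 3 of St6galnac5 lie above 0 on each day, and Gipc2 and Nexn lie below 0 on each day.

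By groups without overlap, 2 of the 10 neighbours stood apart on Day 0 (Ifi44l higher, Gipc2 lower), beside 2.1% of all genes tested. On Day 7 it was 4 of 10 (Ifi44l, Adgrl4 and St6galnac5 higher, Nexn lower), beside 5.35%, and on Day 14 3 of 10 (Ifi44l and Adgrl4 higher, Nexn lower), beside 11%. As the genes were chosen on these contrasts, nothing is read from the counts. The 3 comparisons use different mice. Within the 2 sets of Day 14 arrays, that of FP-KO No. 1 and 2 first, Ifi44l differed by 2.85 and 2.97, St6galnac5 by 1.18 and 1.13, Adgrl4 by 0.48 and 0.41, Gipc2 by -0.34 and -0.55 and Nexn by -0.43 and -0.27. All 10 passed the filter on low values, Ifi44l only through its FP-KO lungs. Ptgfr aside, 3 more genes within 1.1 Mb were measured and are not among the 10. Ak5, an adenylate kinase, and Pigk, a subunit of the GPI transamidase, differed by 0.10 ± 0.35 and 0.21 ± 0.08 on Day 0, -0.08 ± 0.35 and 0.01 ± 0.08 on Day 7 and -0.16 ± 0.33 and -0.06 ± 0.08 on Day 14, and neither passed on any day. The third, Gm31881, was near the floor and was not tested.

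Just inside the limit of 1.1 Mb lies St6galnac5, at 1.021 Mb, with the differences given above. Just outside lies St6galnac3, a related sialyltransferase, at 1.4 Mb, with -0.71 ± 0.22, -0.75 ± 0.22 and -0.76 ± 0.21, and on the other side Adgrl2, a relative of Adgrl4, at 2.983 Mb, with 0.20 ± 0.10, 0.08 ± 0.10 and 0.18 ± 0.09. Within 5 Mb of Ptgfr, apart from Ptgfr and the 10 neighbours, 0 of 11 genes passed on Day 0, 0 on Day 7 and 4 on Day 14 (36.4%, beside 10.5% of all genes). At an unadjusted p under 0.05 by limma the counts were 5, 2 and 6 of the 11, beside 401, 878 and 3078 of all 12068 genes. Without overlap were 3, 2 and 3 of the 11 (27.3%, 18.2% and 27.3%), beside 2.1%, 5.35% and 11% of all genes. The 4 that passed on Day 14 were St6galnac3 and Negr1 (-1.10 ± 0.33), lower in FP-KO lungs, and Acadm (0.46 ± 0.10) and Erich3 (0.63 ± 0.19), higher. With the mouse number within each day as a block in the fit, St6galnac3 and Negr1 did not pass. Within 20 Mb the counts that passed were 0, 0 and 15 of 77 (19.5%), or 12, 8 and 29 at the unadjusted p.

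**Figure D3:**
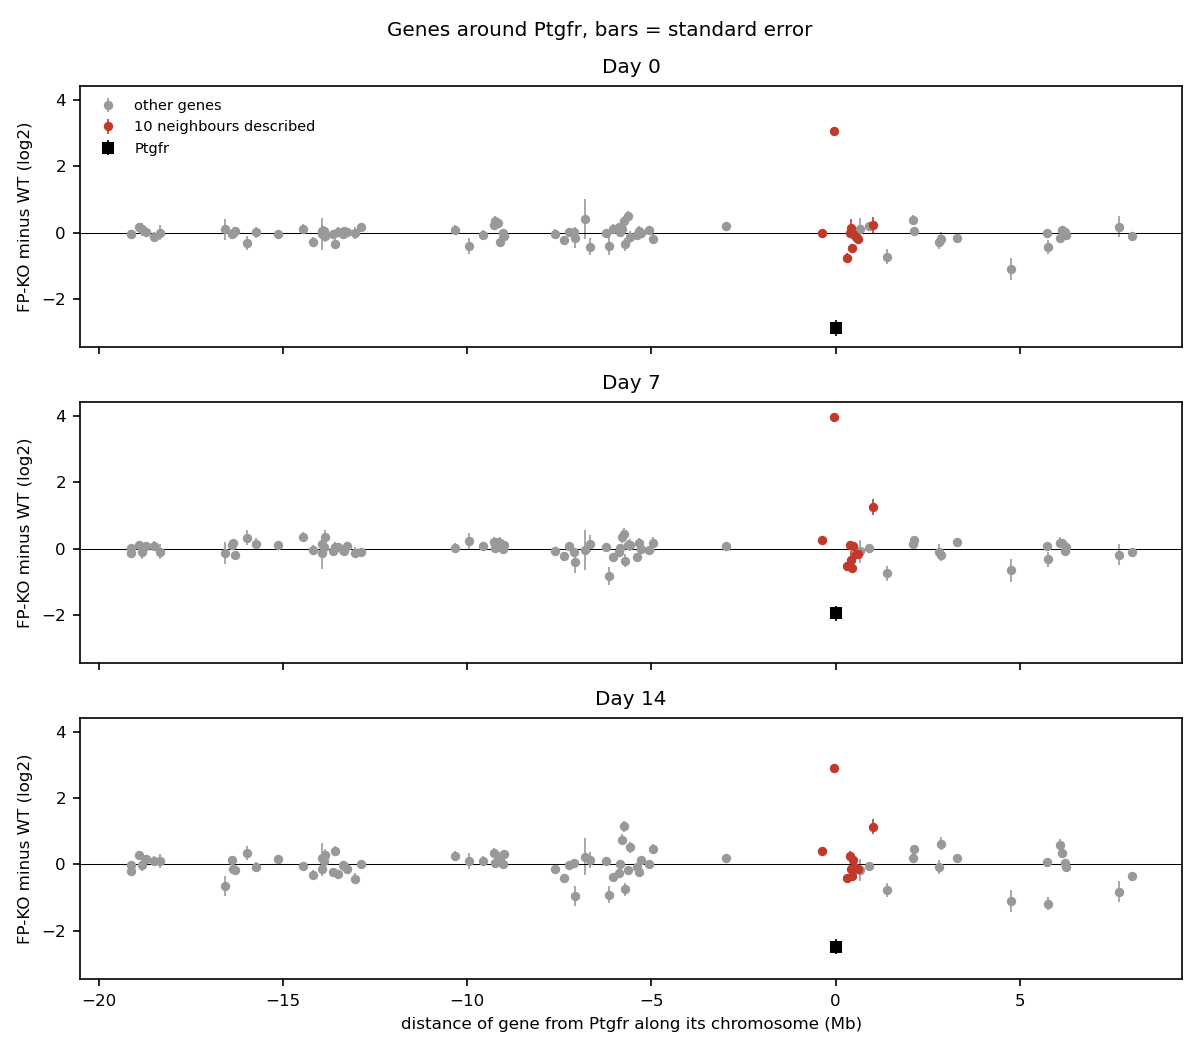
FP-KO minus WT difference (log2, with the standard error) of tested genes against their distance from the Ptgfr start in Mb, for Day 0, Day 7 and Day 14, with the 10 neighbours in red, Ptgfr as a black square and other genes in grey. Ifi44l stands alone at 3.07, 3.96 and 2.91, next to Ptgfr at -2.86, -1.95 and -2.49.

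Over time after bleomycin, Ifi44l rose and fell again in FP-KO lungs. It rose by 1.03 ± 0.11 on Day 7 against Day 0 (adjusted p = 2.89e-06), with each Day 7 lung above each Day 0 lung. From there it fell again, by 1.22 ± 0.11 (adjusted p = 1.66e-06) on Day 14 against Day 7, and the groups again did not overlap. The Day 14 lungs differed from those of Day 0 by -0.19 ± 0.11 (adjusted p = 0.358). The second probe set gave 1.03, -1.36 and -0.33 in the same 3 comparisons. Within the 2 sets of Day 14 arrays the change of Day 14 against Day 7 was -1.29 and -1.14, and without FP-KO mouse No. 2 of Day 14 it was -1.12. In WT lungs 10 of 13 arrays were at the floor, so no change over time can be read there.

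Ifi44l was not alone in this course. Of 26 interferon-stimulated genes tested (30 were listed and 27 measured), 17 rose and 0 fell in FP-KO lungs on Day 7 against Day 0, where 12.6% of all genes rose. The median change was 0.47, beside 0.00 over all genes. The chemokine genes Cxcl9 and Cxcl10 rose by 3.07 ± 0.47 and 2.89 ± 0.26, the nucleic acid sensor Zbp1 by 1.45 ± 0.26 and the antiviral GTPase gene Mx1 by 1.20 ± 0.26. Of the same 26, 15 fell and 0 rose on Day 14 against Day 7 (12% of all genes fell), with a median of -0.53 beside 0.00. Cxcl10 fell by 2.48 ± 0.26, Cxcl9 by 2.07 ± 0.47 and Zbp1 by 1.52 ± 0.26. In the same FP-KO lungs the Actb ratio was 1.18 to 1.35 on Day 7, below the Day 14 range and overlapping that of Day 0 (1.31 to 1.55), and its part in these changes was not tested. Without FP-KO mouse No. 1 of Day 0, 12 rose and 0 fell on Day 7 against Day 0, and without FP-KO mouse No. 2 of Day 14, 13 fell and 0 rose on Day 14 against Day 7. Only Gbp2 passed on Day 14 against Day 0, lower, and 7 did at an unadjusted p under 0.05.

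Across WT lungs 19 of the 26 rose and 0 fell on Day 7 against Day 0 (17.1% of all genes rose), and 16 rose and 2 fell on Day 14 against Day 0 (19.1% rose). Then 0 rose and 2 fell on Day 14 against Day 7. Genes of the list thus rose in WT lungs, while Ifi44l was at the floor in 2 of 4 WT lungs of Day 7 and 5 of 5 of Day 14. At an unadjusted p under 0.05 by limma, 10 and 1 of the 26 differed between the genotypes on Day 0 and Day 7, beside 401 and 878 of all 12068 genes. After adjustment 0 of 26 passed on Day 0 and 0 on Day 7, with medians of 0.28 and 0.13. On Day 14, 5 passed, all lower in FP-KO lungs, with a median of -0.28, beside 10.5% of all genes that passed. At the unadjusted p 10 of the 26 did then, beside 3078 of all 12068. On Day 0 the largest of these differences was that of Oas3, an antiviral enzyme gene, at 1.27 ± 0.32, against 3.07 ± 0.11 for Ifi44l. The list was drawn up with earlier results of these data known, and macrophage genes moved over the same days. Of 6 of them, 4 rose in FP-KO lungs and 6 in WT lungs on Day 7 against Day 0, where 12.6% and 17.1% of all genes rose. Their summed intensity in FP-KO lungs was 10565 to 11693 on Day 0, 13684 to 17756 on Day 7 and 9141 to 14457 on Day 14, with none at the floor throughout a group. Their part in the change of Ifi44l was not tested.

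**Figure D4:**
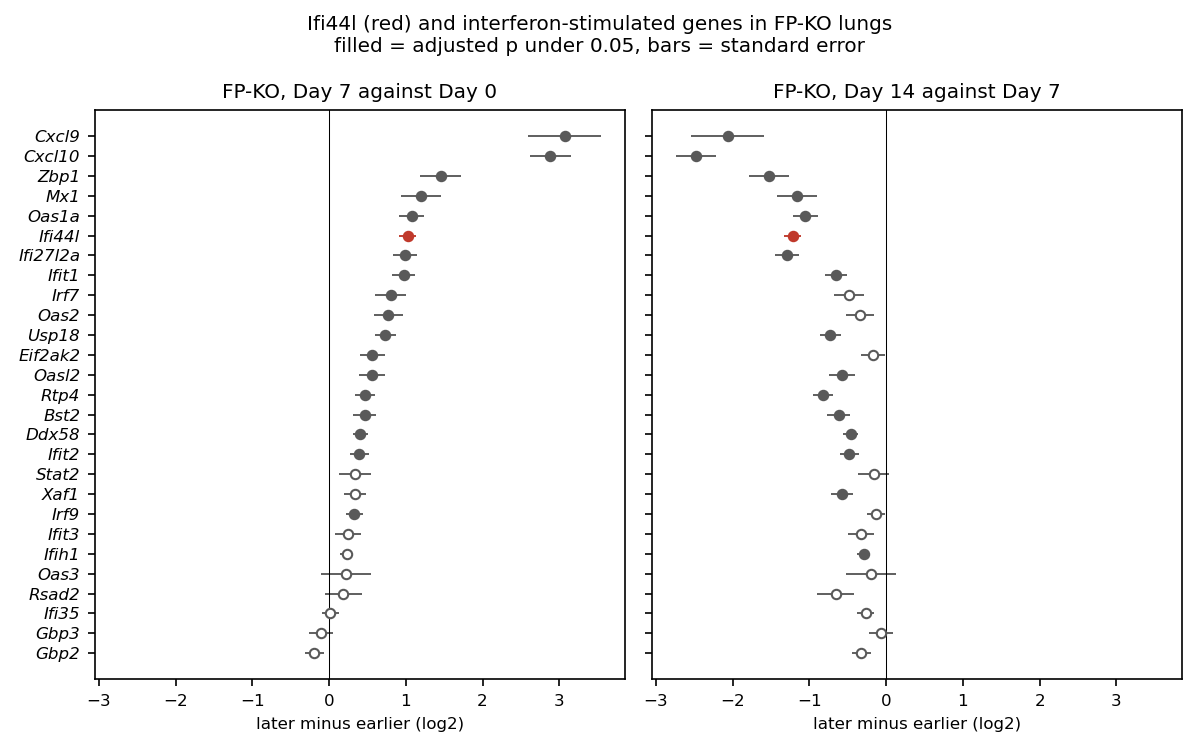
Change in FP-KO lungs (log2, later minus earlier day, with the standard error) of Ifi44l in red and 26 interferon-stimulated genes in grey, ordered by the change on Day 7 against Day 0, with filled points for an adjusted p under 0.05. Ifi44l, at 1.03 and -1.22, lies among the genes with the larger changes, well short of Cxcl9 and Cxcl10.

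Over all 10 neighbours, 1 rose (Ifi44l) and 1 fell (Adgrl4) in FP-KO lungs on Day 7 against Day 0, beside 23.3% of all genes that passed. For Day 14 against Day 0, 0 of 10 passed, with 1 at an unadjusted p under 0.05 by limma, beside 3.23%, and on Day 14 against Day 7 Ifi44l alone did, beside 22.7%. In WT lungs 3 fell and 0 rose on Day 7 against Day 0, beside 35.1% (18% fell), and 4 fell and 0 rose on Day 14 against Day 0, beside 38.7% (19.6% fell). The Actb ratio of WT lungs was 1.23 to 1.32 on Day 7, below the Day 0 range of 1.34 to 1.62. Its part in these falls was not tested. In WT lungs 0 of 10 passed on Day 14 against Day 7 (2 at an unadjusted p under 0.05), beside 5.94%. Counted in either direction, the shares of neighbours that passed are near or below those of all genes. Counted as falls alone, the WT shares against Day 0 are above those of all genes. With 10 genes, nothing is read from this. Whether a change over time differed between the genotypes was not tested, since the genotype contrasts chose the genes.

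St6galnac5 fell in WT lungs by 1.00 ± 0.25 on Day 7 against Day 0 (adjusted p = 0.00295) and by 0.99 ± 0.23 on Day 14 against Day 0 (adjusted p = 0.00198). Mean intensity was 81 ± 20.6 on Day 7 and 82.8 ± 41.5 on Day 14, against 163 ± 45.6 on Day 0 (± SD). In FP-KO lungs the changes were 0.02 ± 0.25 and -0.08 ± 0.25, neither past the test. The other probe sets changed in WT lungs by -0.20 ± 0.42 and -0.68 ± 0.34 on Day 7 and by -0.90 ± 0.40 and -0.42 ± 0.32 on Day 14, both against Day 0.

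Gipc2 fell in WT lungs by 0.40 ± 0.14 on Day 7 (adjusted p = 0.0264) and by 0.48 ± 0.13 on Day 14 (adjusted p = 0.006), both against Day 0. The first did not pass without WT mouse No. 2 of Day 7 (-0.26, adjusted p = 0.138) or WT mouse No. 4 of Day 0 (-0.35, adjusted p = 0.0787). The second was -0.62 with the Day 14 set of WT No. 1 to 3 and -0.27 with that of WT No. 4 and 5, where it did not pass (adjusted p = 0.23). In FP-KO lungs the changes were -0.19 ± 0.14 and -0.13 ± 0.14, and neither passed.

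Adgrl4 fell in WT lungs by 0.60 ± 0.12 on Day 7 (adjusted p = 0.000606) and by 0.47 ± 0.12 on Day 14 (adjusted p = 0.00315), both against Day 0 and without overlap. In FP-KO lungs it fell by 0.34 ± 0.12 on Day 7 against Day 0 (adjusted p = 0.0467), a call that was lost in 17 of 36 alternatives (changes of -0.44 to -0.21). It changed by -0.05 ± 0.12 there on Day 14 against Day 0, which did not pass. Against Day 7, the Day 14 change there was 0.44 with the set of FP-KO No. 1 and 2 (adjusted p = 0.02) and 0.14 with that of No. 3 and 4 (adjusted p = 0.614). Mean intensities in FP-KO lungs were 3455 ± 594, 2774 ± 219.9 and 3271 ± 397 on Day 0, 7 and 14, and in WT lungs 3463.5 ± 298, 2291 ± 154 and 2485 ± 263 (± SD). The other probe set, 1418058_at, changed by -0.40 ± 0.11 in FP-KO and -0.84 ± 0.11 in WT lungs on Day 7 against Day 0. For Day 14 against Day 0 its changes were -0.01 ± 0.11 and -0.59 ± 0.10. Of 14 endothelial genes, 9 fell and 0 rose in FP-KO lungs on Day 7 against Day 0 (10.7% of all genes fell). On Day 14 against Day 7, 9 rose there, or 5 without FP-KO mouse No. 2 of Day 14, where 22.7% of all genes passed in either direction. In WT lungs 8 fell on Day 7 against Day 0 (18% of all genes fell), and 6 fell and 1 rose on Day 14 against Day 0 (19.6% fell and 19.1% rose). The receptor genes Tek, Kdr and Tie1 fell by 0.78 ± 0.11, 0.86 ± 0.19 and 0.81 ± 0.21 in FP-KO lungs on Day 7 against Day 0, and by 0.80 ± 0.11, 0.85 ± 0.19 and 0.75 ± 0.21 in WT lungs. The summed intensity of the list was 56659.6 to 63445, 38938 to 50835.5 and 50434 to 70803 in FP-KO lungs and 56789.7 to 61257, 39646 to 44794 and 46388 to 49380.0 in WT lungs on Day 0, 7 and 14, with none at the floor throughout a group. Between the genotypes 0 of 14 passed on Day 0 and 0 on Day 7, and 2 on Day 14, higher in FP-KO lungs, beside 10.5% of all genes that passed then. At an unadjusted p under 0.05 by limma, 0, 1 and 5 of these endothelial genes did on Day 0, 7 and 14, beside 401, 878 and 3078 of all 12068. Their part in the values of Adgrl4 was not tested. In RNA of whole lung, fewer endothelial cells and less RNA per cell cannot be told apart.

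**Figure D5:**
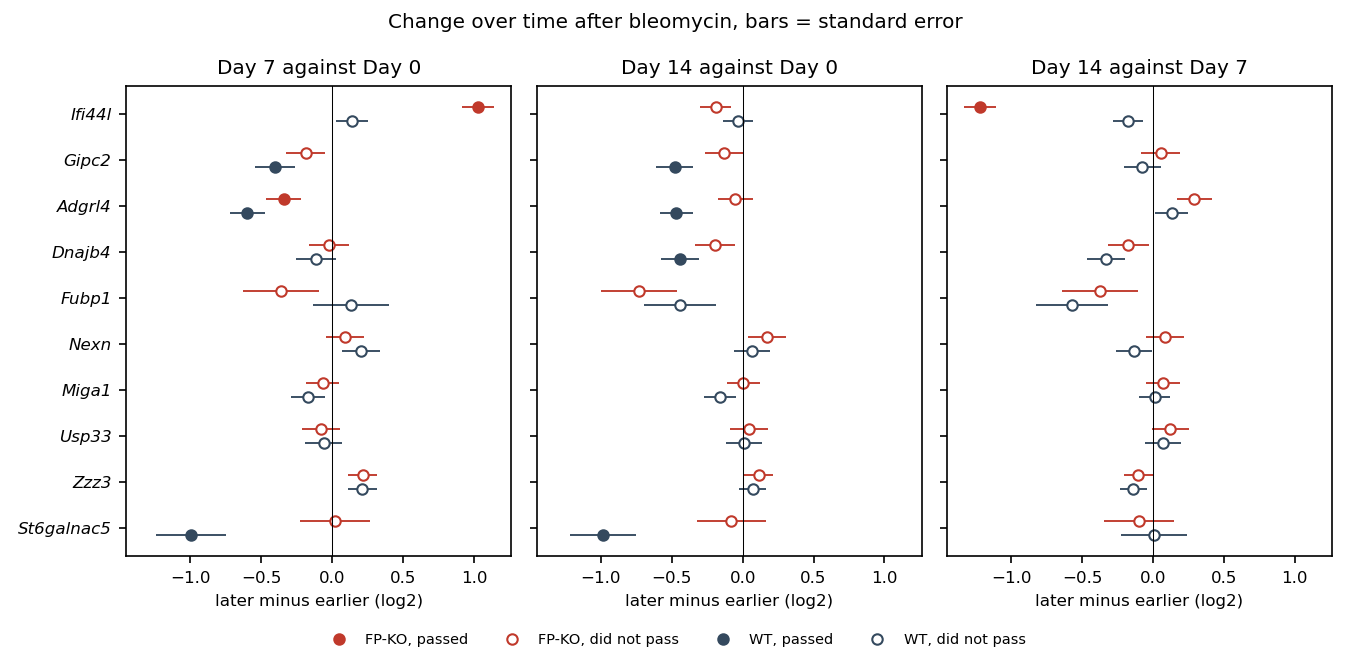
Change over time (log2, later minus earlier day, with the standard error) of the 10 neighbours in FP-KO lungs in red, drawn above WT lungs in dark blue, with filled points where the adjusted p was under 0.05. Ifi44l moves in FP-KO lungs by 1.03 and -1.22, and St6galnac5, Gipc2, Adgrl4 and Dnajb4 have filled WT points below 0 on Day 14 against Day 0.

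Dnajb4 fell in WT lungs by 0.44 ± 0.13 on Day 14 against Day 0 (adjusted p = 0.0122). Its intensities there were 1660.2, 1801, 1787, 2514 and 2155 on Day 14 and 2316, 2631, 2701 and 3036.5 on Day 0, and the WT mice No. 4 and 5 of Day 14 were the 2 highest of their group. The change was -0.61 with the Day 14 set of WT No. 1 to 3 and -0.20 with that of No. 4 and 5 (adjusted p = 0.436), and without WT mouse No. 4 of Day 0 it did not pass (-0.37, adjusted p = 0.0522). In FP-KO lungs it was -0.20 ± 0.14. The other probe sets of Dnajb4 changed in WT lungs by -0.16 ± 0.18 (1431734_a_at) and -0.49 ± 0.24 (1439524_at) on Day 14 against Day 0.

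Fubp1, Nexn, Miga1, Usp33 and Zzz3 passed in no time comparison. Their changes of Day 7 against Day 0 lay between -0.36 (Fubp1) and 0.21 (Zzz3) in FP-KO lungs and between -0.17 (Miga1) and 0.21 (Zzz3) in WT lungs. Fubp1 changed most on Day 14 against Day 0, by -0.73 ± 0.27 in FP-KO lungs (adjusted p = 0.133) and -0.44 ± 0.25 in WT lungs (adjusted p = 0.177). In the Day 14 set of FP-KO No. 1 and 2 and WT No. 1 to 3 these values were -1.20 and -0.69 and passed, and in the other set they were -0.27 and -0.07 and did not. Its 4 probe sets went different ways in FP-KO lungs: 0.26 ± 0.13 in 1433482_a_at, -0.04 ± 0.22 in 1433640_at and -0.74 ± 0.31 in 1437544_at, beside -0.73 in the one that stands for the gene. Zzz3 was split likewise in WT lungs, at 0.07 ± 0.09 in 1434332_at and -0.61 ± 0.15 in 1438487_s_at. Of 9 smooth muscle genes, set beside Nexn for their actin fibres, 1 fell in FP-KO and 2 in WT lungs on Day 7 against Day 0. Of all genes 10.7% and 18% fell there. In WT lungs 2 fell and 1 rose on Day 14 against Day 0, where 19.6% of all genes fell and 19.1% rose. In FP-KO lungs 1 fell on Day 14 against Day 7, where 12% of all genes fell.

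Across the 25 arrays, the gene most like Ifi44l was another of the neighbours, St6galnac5 (Pearson r = 0.688 of log2 levels), then Itga1 (0.658), Wdr63 (0.648), Mphosph10 (0.624) and Nsg2 (0.622). With each group's mean taken out, the value for Ifi44l and St6galnac5 was 0.206. Both were chosen for their difference between the genotypes, and Ifi44l was at the floor in 10 of 13 WT arrays. Gipc2 was most like Ptgfr (0.840), Mtus2 (0.775) and Cpsf3 (0.674), and Nexn most like Ptgfr (0.671), Ikbke (0.669) and Adprhl2 (0.624). Adgrl4 was most like Selenbp1 (0.904), Igfbp3 (0.895) and Hpgd (0.894), Dnajb4 like Klf4 (0.845), Csnk1e (0.843) and Chchd7 (0.823), and Fubp1 like Marf1 (0.886), Nsd3 (0.877) and Ttc14 (0.874). Miga1 was most like Gkn3 (0.85), Usp33 like Wdr6 (0.734), Zzz3 like Dusp5 (0.751) and St6galnac5 like 4930523C07Rik (0.761). The arrays share genotype, day and the 2 sets of Day 14, so these values describe the arrays and have no p.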

How the data were processed

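RNA of whole lung was labelled and hybridised to Affymetrix mouse arrays, 1 array per mouse, per the labels' protocols. The deposited values were intensity on a linear scale, scaled by the authors so that each array has a trimmed mean of 500 with 2% of values left out at each end, as the values themselves show. The software and the background correction are not given in the sources used here.

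Values below 24.3, the 20th percentile, were set to it, and log2 was taken. Array medians differed by 0.437 (6.80 to 7.24), over the limit of 0.3 set for this step, and the arrays were quantile normalized. Of 45101 probe sets, 34945 carry 1 symbol, 932 several and 9160 none, and the other 64 are controls. Of several probe sets of a gene the brightest on average was used, and genes were tested if 4 or more arrays had them over that array's median. The floor understates differences of genes near it, such as Ifi44l in WT lungs.

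Group means of all 25 arrays were fitted with limma 3.58.1 in R 4.3.3 (lmFit, eBayes), with Benjamini-Hochberg adjustment over 12068 genes and a threshold of 0.05. Figures were drawn with matplotlib 3.10.9 in python 3.11.15. On simulated data for FP-KO, Day 7 against Day 0, over 12068 genes, 49% of 100 genes changed by 0.5 (log2) and 91% of 100 changed by 1 were recovered, with 7 false calls among 147. Positions and promoter windows are those of the RefSeq table of GRCm38.p6.

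The labels give mouse numbers to all groups. Residuals of same-numbered FP-KO and WT mice correlated at 0.119 to 0.345 on Day 0, 0.142 to 0.221 on Day 7 and -0.308 to 0.437 on Day 14. Each pair was over 0.1 on Day 0 and Day 7, so the number was also tried as a block, on the data alone. Mice of different numbers were not compared in this way, so the numbers are not known to pair mice. The standard errors and p-values given in the Results are from the fit without pairs. With the number as a block, over all days or within each day, 0 genes of the lists and 0 of those within 20 Mb passed between FP-KO and WT on Day 0 and Day 7, as without it. On Day 14 counts moved: over all genes 1618 and 1911 passed with the 2 blocks, against 1272. Within 5 Mb 3 higher and 2 lower passed, and 3 higher and 0 lower, against 2 and 2. Of the smooth muscle genes 2 and 3 passed, lower, against 0. Interferon-stimulated genes gave 5 and 7, against 5, and macrophage genes 3 and 3, against 3. These counts, and those of lists without the FP-KO arrays of highest 18S signal, were chosen after seeing the data. Between days no set of pairs was over 0.1 throughout. The members and the gene lists (interferon-stimulated, endothelial, heart and skeletal muscle, smooth muscle, macrophage, lung) were chosen with earlier results of these data known. Named were the 10 genes, those within 1.1 Mb, the genes most like each of them and up to 4 genes per list with the largest change that passed. Gbp2, Oas3, Acadm, Erich3, Negr1, St6galnac3 and Adgrl2 were named after their values were seen. Alternatives varied the floor, normalization, filter, probe set, array weights, moderation, arrays and the block.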

Additional observations from a re-analysis of the deposited data

Results flagged for a closer look

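In 60 groups of 4 or 5 mice (10 genes in 6 groups), a mouse far from the rest was looked for, and chance alone gives about 5% of groups such a mouse. It was found in 4. Ifi44l was at 4.74 (log2) in WT mouse No. 4 of Day 0, while the other 3 mice were at the floor, 4.60, so the gap is set by the floor. Fubp1 was at 8.77 in FP-KO mouse No. 2 of Day 7, against 9.81 to 9.93 in the other 3. Miga1 was at 8.59 in WT mouse No. 2 of Day 7, against 8.72 to 8.74 in the other 3. Usp33 was at 10.50 in FP-KO mouse No. 1 of Day 14, against 10.68 to 10.70 in the other 3.

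In 2 cases every mouse of the later day lay to one side of its earlier day's mean in FP-KO lungs and to the other side in WT lungs. Fubp1 changed by -0.36 in FP-KO lungs and 0.13 in WT lungs on Day 7 against Day 0, a difference of -0.49. Nexn changed by 0.08 in FP-KO lungs and -0.14 in WT lungs on Day 14 against Day 7, a difference of 0.22. Neither difference was tested.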

How the results depend on the processing

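Over 38 alternatives, 25 of which leave out 1 array, the changes of Ifi44l in FP-KO lungs and of St6galnac5 in WT lungs kept their direction and passed wherever they were tested (0.73 to 1.1 and -1.29 to -0.87 for Ifi44l on Day 7 against Day 0 and Day 14 against Day 7, -1.14 to -0.92 and -1.23 to -0.87 for St6galnac5 on Day 7 and Day 14 against Day 0). With the filter of at least 13 arrays above the median, Ifi44l was not tested. With the mean of all probe sets, St6galnac5 was not tested, so its ranges here do not cover that choice. The changes of its other probe sets in WT lungs, given above, were -0.20 and -0.68 on Day 7 and -0.90 and -0.42 on Day 14. Of 2228 values of the 10 genes in time comparisons 68 had the opposite sign of the reported value. In 67 of these neither value passed, and the other was Zzz3 in WT lungs on Day 14 against Day 0, at -0.27 with the mean of all probe sets, which passed, against 0.07 as reported. Of 1094 genotype values 13 moved by over 1 SD, 9 of them Ifi44l with another floor or with the mean of all probe sets (2.07, 2.75 and 1.95 on the 3 days). Adgrl4 on Day 0 became -0.30 without FP-KO mouse No. 3 of Day 0 and -0.31 without FP-KO mouse No. 3 of Day 7, as its other probe set then stands for it. Fubp1 on Day 14 became 0.29 with array weights and Miga1 on Day 7 0.26 with the mean of probe sets.

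Genes of the 10 that passed in FP-KO lungs on Day 7 against Day 0 numbered 2, 1 with the stricter filter, where Ifi44l was not tested, and 1 with no filter, a common median, no normalization or the compared groups alone, where Adgrl4 did not pass. For Day 14 against Day 0 the count was 0, and 1 with the Day 14 set of FP-KO No. 1 and 2 or the replicate block. For Day 14 against Day 7 it was 1, 0 with the stricter filter, where Ifi44l was not tested, 3 with that Day 14 set, 3 with the mean of probe sets and 2 with the block. In WT lungs they numbered 4 on Day 14 against Day 0, and 2 with the Day 14 set of WT No. 4 and 5. The count for Day 14 against Day 7 was 0, 2 with array weights, 2 with the set of WT No. 1 to 3, 1 with the mean of probe sets and 2 with the block. The replicate block gave 3 and 5 in the other WT comparisons, where 3 and 4 passed, and 2 in FP-KO lungs on Day 7 against Day 0, where 2 passed. Same-numbered mice of different days correlated at -0.234 to 0.154 in FP-KO lungs and -0.12 to 0.159 in WT lungs, so these numbers are not known to pair mice. The cause of these shifts was not tested.

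With 1 array left out in turn, the counts that passed were 1 to 2 in FP-KO lungs on Day 7 against Day 0, 0 to 0 on Day 14 against Day 0 and 1 to 2 on Day 14 against Day 7. In WT lungs they were 2 to 3, 3 to 4 and 0 to 0. Counts without overlap between FP-KO and WT were 2 to 3 on Day 0, 3 to 6 on Day 7 and 2 to 6 on Day 14, with 6 without WT mouse No. 3. Within each Day 14 set 7 of 10 did not overlap, but groups of fewer arrays overlap less often, so this cannot be set against the 3 above. For the counts without overlap in these sets, and with 1 array left out, the share over all genes was not computed. Nothing is read from them. Of the 11 other genes within 5 Mb, 2 passed on Day 14 with no filter on low values, against 4.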
